A study of Sus scrofa with 8 samples.

Results

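Expression of 5 genes linked to eosinophils and basophils was followed in whole blood of miniature pigs: ALOX15, MS4A2, CCR3, HDC and CCL24. Each gene was read by 1 probe, so the set is 5 of the 43603 probes of the array and 5 of the 1917 genes that could be named. Probes were chosen by gene name or by the symbol or full name in the probe description, which found 4 of the 5 genes. CCL24 was found through the gene number that the array gives its probe, listed as CCL24 in the RefSeq gene table. The genes were picked with their mean difference between the diets already known, so that difference is given below as a description, without a test, and nothing is supported with it.

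The animals were 8 female conventional Clawn miniature pigs, 8 to 9 months old, with 1 array each. The 4 control animals ate dry feed, and the other 4 ate dry feed mixed with equal weights of water and shochu distilled water (SDW), named after the Japanese spirit shochu. Feeding lasted 12 weeks by the series' design text, but by the descriptions it was 14 weeks for replicate 1 of either diet, 15 for replicate 2, 16 for replicate 3 and 17 for replicate 4. The labels speak of replicates and of single animals, and no litter or pen is given, so p-values measure the spread between these 8 samples.

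Eosinophils and basophils are rare granulocytes of blood that take part in allergy and in defence against worms. CCL24, also called eotaxin-2, is a chemokine that attracts them through the receptor CCR3. Basophils and mast cells carry the high-affinity IgE receptor, whose beta chain MS4A2 amplifies its signal, and HDC, histidine decarboxylase, makes the histamine they store. ALOX15, arachidonate 15-lipoxygenase, oxidises polyunsaturated fatty acids and is abundant in eosinophils and in some macrophages.

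What was measured for each gene is the binding of labelled RNA to a single oligonucleotide of 60 bases. The sequences are shown because every value below rests on these single probes. They are printed 5′ to 3′ as the scanner files give them, the MS4A2 probe whole and the others by their first 30 bases, with no stretch singled out by capitals.
CCL24: gggctaatgttcctatttctagcatcgttc
CCR3: aagacattaaaatatatacacaatggtgga
MS4A2: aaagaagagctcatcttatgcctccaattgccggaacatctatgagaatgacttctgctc
HDC: agcttctgtggtttagcttgtgacatgaac
ALOX15: aaatctcattatttcagagttcttcaatgg
The G and C content of the whole probes was 40.0% for CCL24, 35.0% for CCR3 and HDC, and 43.3% for MS4A2 and ALOX15, against a median of 40.0% over all probes. No other probe of the array shared 25 bases in a row with any of them. The CCL24 probe was designed on an expressed sequence tag from a jejunum library, and its identity was not checked against a transcript. Whether these probes lie in coding sequence or in a UTR was not analysed here.

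Levels are log2 of the processed signal minus the array's own 75th percentile, so a value of 0 means a signal equal to that percentile, and each level is read only against the same probe on other arrays. The 75th percentile ranged from 39.9 to 73.1 signal units, and the share of probes well above background ranged from 35.2% to 43.5%. Arrays lay on 3 slides. Control 3, SDW 2 and SDW 3 shared slide 1, control 2, control 4 and SDW 1 shared slide 2, and control 1 and SDW 4 shared slide 3, which was scanned on a day of its own. These last 2 arrays stood apart from the rest, at -88.7 and -72.5 on the first principal component (42.8% of variance), with the other 6 between 20.0 and 38.1. Between the diets, limma with Benjamini-Hochberg adjustment called 0 of 17350 measured probes (0.0%), with 251 at an unadjusted p under 0.05.

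The eosinophil and basophil label could be checked only in part. Of 12 eosinophil markers, only ALOX15 and CCR3 were measured, and the 13 listed granule proteins and proteases, which define these cells most sharply, had no named probe. Of 12 basophil and mast cell markers, MS4A2, HDC, KIT and GATA2 were measured. CCL24, which attracts these cells, was in neither marker list. The genes are therefore called by name rather than read as counts of cells. In whole blood, fewer cells of a type and less RNA per cell cannot be told apart.

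CCL24, the ligand, lay at -0.34, 0.21, -1.19 and -0.37 in controls 1 to 4 and at 0.64, 0.70, 1.13 and -0.58 in SDW animals 1 to 4. Controls averaged -0.42 ± 0.58 (SD, n = 4) and SDW animals 0.47 ± 0.73 (SD, n = 4). In all, 3 SDW animals stood above every control, while SDW 4 lay below 3 of the controls, so the groups overlapped. The mean was 0.89 higher on the log2 scale in SDW animals (SE 0.41), a 1.86-fold difference. It was 2.11 on slide 1 and 0.72 on slide 2, but -0.25 on slide 3. With slide 3 left out the difference was 1.27, and after normexp background correction, which compresses dim probes, it was 0.37.

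CCR3, the receptor for CCL24 and the other eotaxins, lay at 0.37, 1.42, 1.72 and 1.24 in the controls and at 2.12, 2.25, 1.64 and 0.86 in the SDW animals. The means were 1.19 ± 0.58 and 1.72 ± 0.63 (SD, n = 4 each). SDW 1 and SDW 2 were above all controls, and SDW 4 was below 3 of the 4. The difference was 0.53 (SE 0.38), or 1.44-fold, and kept its direction on each slide, at 0.23, 0.79 and 0.49. It depended on the arrays of slide 3 in both directions, being 0.26 without control 1 and 0.82 without SDW 4.

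MS4A2, the signal-amplifying chain of the IgE receptor, was dim. In control 1 it was not well above background and read -3.10, and the other controls read -0.68, -1.45 and -0.90. The SDW animals read -0.15, -0.64, -0.72 and -0.74 and spanned a much narrower range. Only SDW 1 and SDW 2 were above every control, and control 2 lay above SDW 3 and SDW 4. The means were -1.53 ± 1.09 and -0.56 ± 0.28 (SD, n = 4 each), a difference of 0.97 (SE 0.48). Without control 1 the difference was 0.45, without slide 3 it was 0.51, and with normexp background correction it was 0.17.

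HDC, the histamine-making enzyme, showed the least separation of the diets. Its probe was not well above background in control 1, at -2.03, and read -0.05, -0.51 and 0.14 in the other controls. The SDW animals read 0.36, -0.13, -0.18 and -0.70. Only SDW 1 exceeded every control. Of the 16 pairings of an SDW animal with a control, 9 had the SDW animal higher. The means were -0.61 ± 0.98 and -0.16 ± 0.43 (SD, n = 4 each), a difference of 0.45 (SE 0.46). Leaving out control 1 brought it to -0.02, leaving out control 4 to 0.70, and without slide 3 it was 0.15. With normexp it was 0.15.

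ALOX15, the lipoxygenase, was bright on every array, above 95.5% of all probes or more. Its levels were 4.84, 5.70, 6.02 and 4.93 in the controls and 7.05, 6.13, 5.88 and 5.72 in the SDW animals. Because it was far from background, its difference of 0.82 (SE 0.37; 1.77-fold) hardly moved with normexp, at 0.81. SDW 1 and SDW 2 lay above all controls, and control 3 lay above SDW 3 and SDW 4. The means were 5.37 ± 0.58 and 6.20 ± 0.59 (SD, n = 4 each). The difference was largest on slide 2, at 1.73, beside -0.01 on slide 1 and 0.88 on slide 3. Without SDW 1 it was 0.54.

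**Figure D1:**
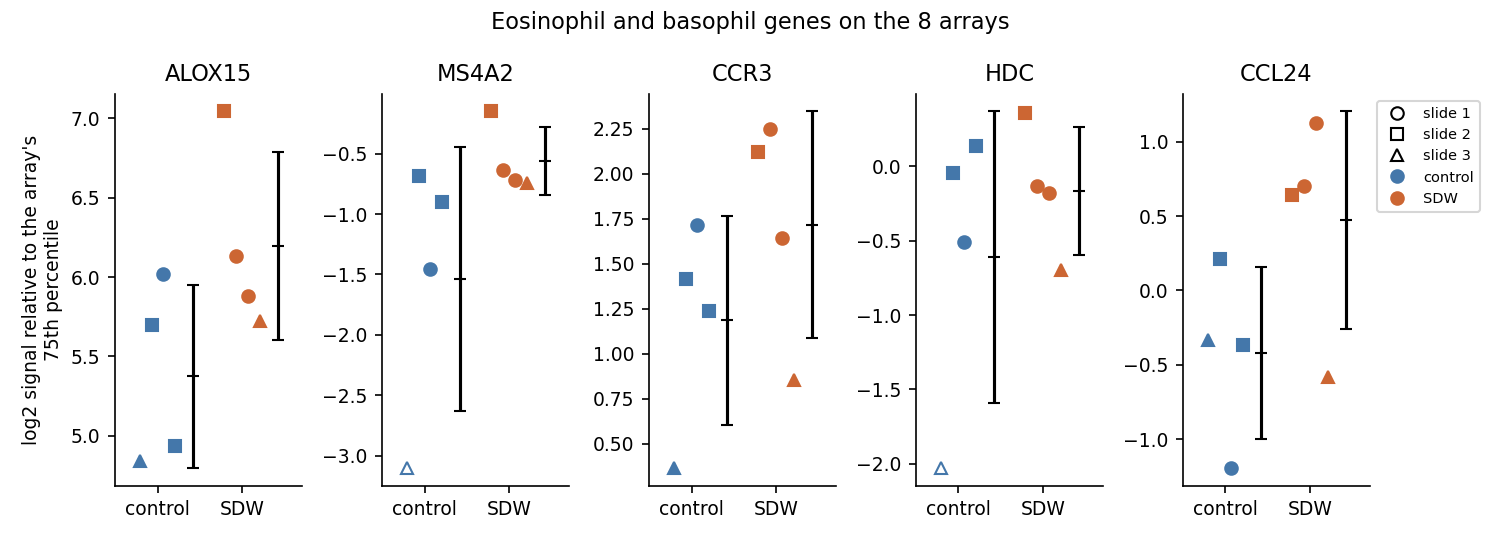
Level of the 5 genes on each array, as log2 signal relative to the array's 75th percentile, for 4 control and 4 SDW animals. Marker shape gives the slide, open symbols are spots not well above background, and the black bar with whiskers is the mean ± SD. The diets overlap for every gene, and the open symbols of MS4A2 and HDC belong to control 1.

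All 5 genes had a higher mean in SDW animals, and 4 of them by 0.5 or more on the log2 scale. Over all measured probes 52.9% had a higher mean and 4.62% were higher by that size, but the choice of the genes fixed this count and nothing is read from it. In none of the 5 did the groups separate completely, which 0.599% of probes did with SDW animals higher. The median difference over all measured probes was 0.02. Pooled over the diets, SDs ran from 0.58 for ALOX15 to 0.80 for MS4A2, beside a median of 0.43 over all measured probes. For MS4A2 and HDC the spread lay mostly in the controls, which include control 1. Their SDs were 1.09 and 0.98 in controls and 0.28 and 0.43 in SDW animals.

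**Figure D2:**
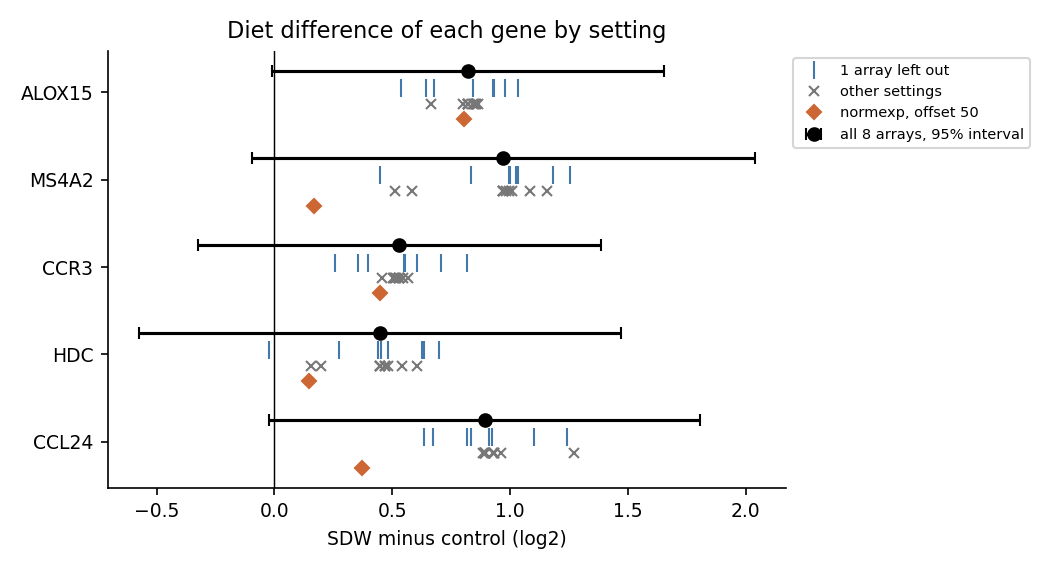
SDW minus control difference in log2 level of each gene, for the main setting (with its 95% interval), other normalizations, and fits without an array or a slide. The HDC difference is close to 0 without control 1, and MS4A2, HDC and CCL24 are smaller after normexp background correction.

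Control 1 was lowest for 4 of the 5 genes, beside 18.0% of the measured probes that could be given a gene name. Its MS4A2 and HDC values were not well above background. CCL24 was lowest in control 3. SDW 1 was highest for ALOX15, MS4A2 and HDC, SDW 2 for CCR3 and SDW 3 for CCL24. SDW 1, 2 and 3 were above the gene's own mean for all 5 genes, whereas SDW 4 was so for 1, and the choice of genes with higher SDW means favours that. Averaged over the genes, levels relative to their own means ran from -1.22 in control 1 to 0.84 in SDW 1.

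A comparison that did not enter the choice of the genes was that of slide 3 with slides 1 and 2, fitted together with diet. CCR3 was lower on slide 3 by a log2 difference of -1.12 (SE 0.26, limma adjusted p = 0.0184) and HDC by -1.30 (SE 0.32, adjusted p = 0.0262). The estimates were also negative for MS4A2 (-1.16, adjusted p = 0.0856), ALOX15 (-0.67, adjusted p = 0.253) and CCL24 (-0.64, adjusted p = 0.337), none of which passed. Thus 2 of 5 were called lower, beside 7.45% of all measured probes called lower and 14.2% called in either direction. Slide, scan day and the 2 animals on it cannot be told apart.

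The calls depended on single arrays, while the estimates stayed negative. For CCR3 the call was lost without control 1 (estimate -1.15, adjusted p = 0.173) and without SDW 4 (-1.09, adjusted p = 0.156). For HDC it was lost without control 1 (-0.71, adjusted p = 0.439) and kept without SDW 4 (-1.89, adjusted p = 0.0363). HDC also lost its call without control 2 (adjusted p = 0.0522) or control 4 (adjusted p = 0.0521), which were not on slide 3. Both calls were lost with normexp correction, with adjusted p-values of 0.0543 for CCR3 and 0.108 for HDC.

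Other genes of the blood cell marker and pathway lists went both ways on slide 3. Of 54 measured, limma called 7 higher and 2 lower. Over all 17350 measured probes it called 1170 higher and 1292 lower, 14.2% in either direction. The myeloid transcription factor SPI1 was 2.34 higher (adjusted p = 0.0021), NCF1, a subunit of the phagocyte oxidase, 2.30 (adjusted p = 0.0023), and GATA2, a transcription factor of basophils, mast cells and progenitors, 1.93 (adjusted p = 0.0049). TREM1, a receptor of neutrophils and monocytes, was 1.44 higher (adjusted p = 0.017), as were the monocyte marker CD14 by 1.33, the T cell receptor chain CD3E by 1.32 and the thromboxane synthase TBXAS1 by 0.83. Lower on slide 3, as CCR3 and HDC were, were the cytotoxic T cell marker CD8A at -1.29 (adjusted p = 0.0106) and the platelet integrin chain ITGB3 at -1.07 (adjusted p = 0.0133). The neutrophil markers PGLYRP1 and MMP9 had estimates of -0.72 and -0.05 and were not called. CD14 and CD3E did not stand for their lists. The other monocyte and macrophage markers were LYZ at -1.27, CD36 at -0.42, FCGR1A and CD163 at -0.41, CCR2 at -0.37 and SLC11A1 at 0.17. The other T cell markers beside CD8A were CD3G at -1.05, CD8B at -0.48 and CD3D at -0.15. None of these was called.

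**Figure D3:**
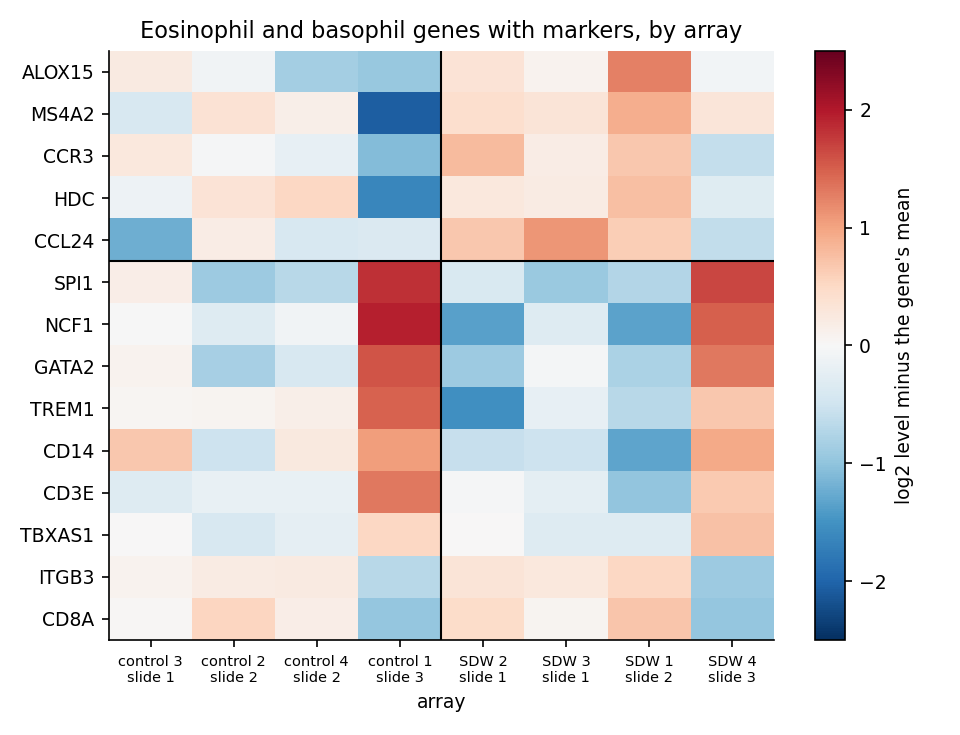
Level of each gene on each array relative to the gene's own mean (log2), with the 5 eosinophil and basophil genes above the line and, below it, the 9 other list genes called on slide 3; controls are on the left and SDW animals on the right. On slide 3 (control 1 and SDW 4) 7 of the 9 are high, while ITGB3, CD8A, CCR3 and HDC are low.

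A trend over the feeding weeks of the sample descriptions, fitted with diet, was called by limma for none of the 17350 probes (0.0%), with 825 at an unadjusted p under 0.05. Per week, CCL24 changed by -0.24 (SE 0.18), CCR3 by -0.07 (SE 0.18) and ALOX15 by -0.18 (SE 0.16). MS4A2 changed by 0.20 (SE 0.22) and HDC by 0.14 (SE 0.21), and both of these signs turned without slide 3. No gene's trend was called. The weeks follow replicate numbers, which the scanner files and the authors' value table give differently. By the table's numbers no probe was called either, but 3782 were at an unadjusted p under 0.05. MS4A2 then changed by -0.22, HDC by -0.30 and CCR3 by -0.38 per week (for CCR3, limma adjusted p = 0.135). By those numbers, week 17 fell on control 1 and SDW 4 alone, the arrays of slide 3. That trend and the slide 3 difference therefore cannot be fully told apart.

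Across the 8 arrays, Pearson's r was above 0 for all 10 pairs of the 5 genes, with a median of 0.63 and a range from 0.40 to 0.93. No pair passed after Benjamini-Hochberg adjustment over the 10 pairs (exact permutation test of pairings, two-sided). The highest was MS4A2 with HDC, the IgE receptor chain with the histamine enzyme, at r = 0.93 (exact p = 0.0085, adjusted 0.0639) and Spearman's rho = 0.69 (exact p = 0.0694). ALOX15 with CCR3, both eosinophil markers, reached r = 0.80 (exact p = 0.0192, adjusted 0.0639) and rho = 0.90 (exact p = 0.0046, adjusted 0.0456), so only the rank measure passed. That test spans both diets, for genes chosen with their diet difference known, and does not account for slides shared by arrays. CCR3 with HDC reached r = 0.78 (exact p = 0.0177, adjusted 0.0639), with rho = 0.52.

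Because all 5 genes were chosen for higher means in SDW animals, part of a positive r across both diets is set by that choice. With the diet means removed, r stayed above 0 in 10 of 10 pairs, with a median of 0.51. MS4A2 with HDC then reached 0.96 (permutation adjusted p = 0.0052), ALOX15 with CCR3 0.74 (permutation adjusted p = 0.135) and ALOX15 with CCL24 0.03. Values with the diet means removed sum to 0 within each diet, so they are not freely exchangeable. The p-values with the diet means removed are therefore only approximate. On the 6 arrays of slides 1 and 2 the median was 0.43, with MS4A2 and HDC at 0.84, ALOX15 and CCR3 at 0.82, and CCR3 and HDC at 0.07. Leaving out the 2 arrays farthest from the median of the first gene brought MS4A2 and HDC to 0.50 and ALOX15 and CCR3 to 0.60, and 8 of 10 pairs stayed positive. The relation of MS4A2 and HDC rested largely on control 1, where neither probe was well above background, and was 0.62 without it. Over all 8 arrays with normexp background correction, r of MS4A2 and HDC was 0.39.

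**Figure D4:**
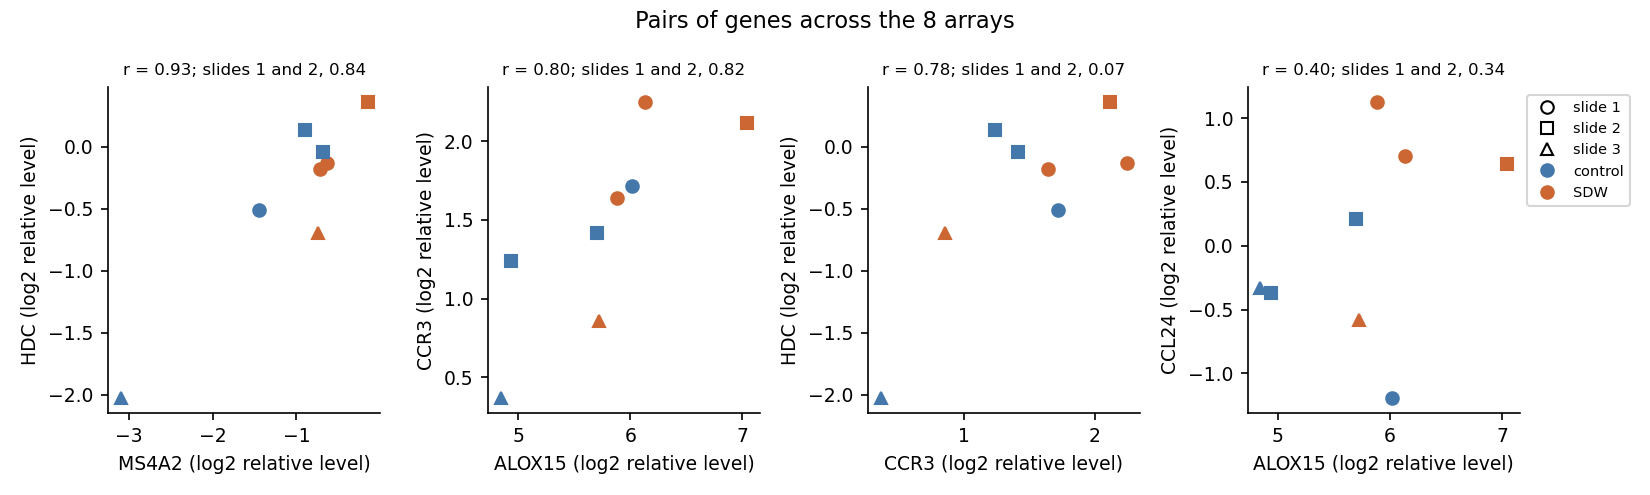
Log2 levels of pairs of the 5 genes against each other, 1 point per array, relative to each array's 75th percentile. Control 1 lies at the low end of MS4A2 and HDC, whose r is 0.93 over 8 arrays and 0.84 over the 6 arrays of slides 1 and 2.

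The genes with the most similar pattern over the 8 arrays were sought among 1088 other named genes, by Pearson's r and as a description. For CCR3 they were GLUL (glutamine synthetase, r = 0.98), the transcription factor MEF2A (0.97), the membrane protein ITM2B (0.96) and KMO, an enzyme of tryptophan breakdown (0.96). For CCR3, 95 genes (8.73%) had r above 0.8, so many genes shared its course. For ALOX15 they were PHYH, a peroxisomal fatty acid enzyme (0.96), the myosin light chain MYL6 (0.95), the calcium-binding S100A6 (0.94) and the respiratory chain subunit COX7A2 (0.92). CCR3 ranked only 37 for ALOX15, and ALOX15 ranked 98 for CCR3.

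MS4A2 and HDC each stood in the other's list. For MS4A2 the most similar genes were the antimicrobial peptide gene DEFB1 (r = 0.96), HDC (0.93), the calcium pump ATP2B1 (0.91) and the translation factor EIF4A2 (0.88). For HDC they were ATP2B1 (0.96), EIF4A2 (0.94), ITM2A (0.93) and MS4A2 (0.93). On slides 1 and 2 alone MS4A2 was at 0.86 with ATP2B1, 0.84 with HDC, 0.76 with DEFB1 and 0.41 with EIF4A2, and HDC was at 0.79 with ATP2B1, 0.59 with ITM2A and 0.54 with EIF4A2. CCL24 had the fewest alike, with 4 genes (0.368%) above 0.8: ALG2, an enzyme of protein glycosylation (0.87), the progenitor marker CD34 (0.85), the lymphocyte adaptor SH2D1A (0.85) and the T cell surface peptidase DPP4 (0.83). Its nearest of the other 4 genes, CCR3, ranked 70.

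Other genes of eosinophil and basophil biology, from a list arranged by role, did not show a common course between the diets. Of 117 listed genes 49 were on the array by name and 30 were measured, of which 13 had a higher and 17 a lower mean in SDW animals. None was called by limma (0.0% of all probes were), 1 had an unadjusted p under 0.05, and their median difference was -0.07 beside 0.02 over all probes.

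Among recruiting chemokines, 4 of 9 were measured. CCL4 differed by -0.61 (SE 0.37), CCL5 by -0.17 (SE 0.32), CCL8 by 0.13 (SE 0.69) and CCL3L1 by 0.00. The other eotaxins CCL11 and CCL26 were on the array but not measurable. Among 8 receptors for chemoattractants and adhesion, CCR2, the receptor for monocyte chemokines, had the largest positive difference, at 0.88 (SE 0.24, unadjusted p = 0.0047, limma adjusted p = 1.00). CCR1 differed by -0.24 (SE 0.34), and by 0.07 on its other probe. ITGB1, the integrin beta-1 chain, differed by 0.00, and by 0.03 on its other probe.

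The type 2 cytokines IL4, IL5 and IL13, with CSF2 and KITLG, had probes but were not measurable in this blood. Of their receptors, IL4R differed by -0.92 (SE 0.67) and KIT, the receptor of stem cell factor, by 0.00. In IgE receptor signalling, the gamma chain FCER1G that pairs with MS4A2 differed by -0.12 (SE 0.23). The kinase SYK differed by -0.45 (SE 0.30) and the kinase FYN by 0.31 (SE 0.27), but by -0.03 on the other FYN probe. On the list of eicosanoid enzymes, ALOX5AP, GPX4 and TBXAS1 differed by -0.42, -0.03 and 0.05. On their other probes ALOX5AP was at -0.65 and GPX4 at -0.01. Of histamine-handling enzymes other than HDC, ALDH2 differed by 0.19 (-0.34 on its other probe) and MAOB by 0.17. Among transcription factors GATA3 and MITF both differed by 0.42, ID2 by 0.26 and CEBPB by -0.26, all 4 within 1.5 times their SE. The other probes of MITF were at 0.46 and 0.12, and that of ID2 at 0.43. No change was called in any of these roles.

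**Figure D5:**
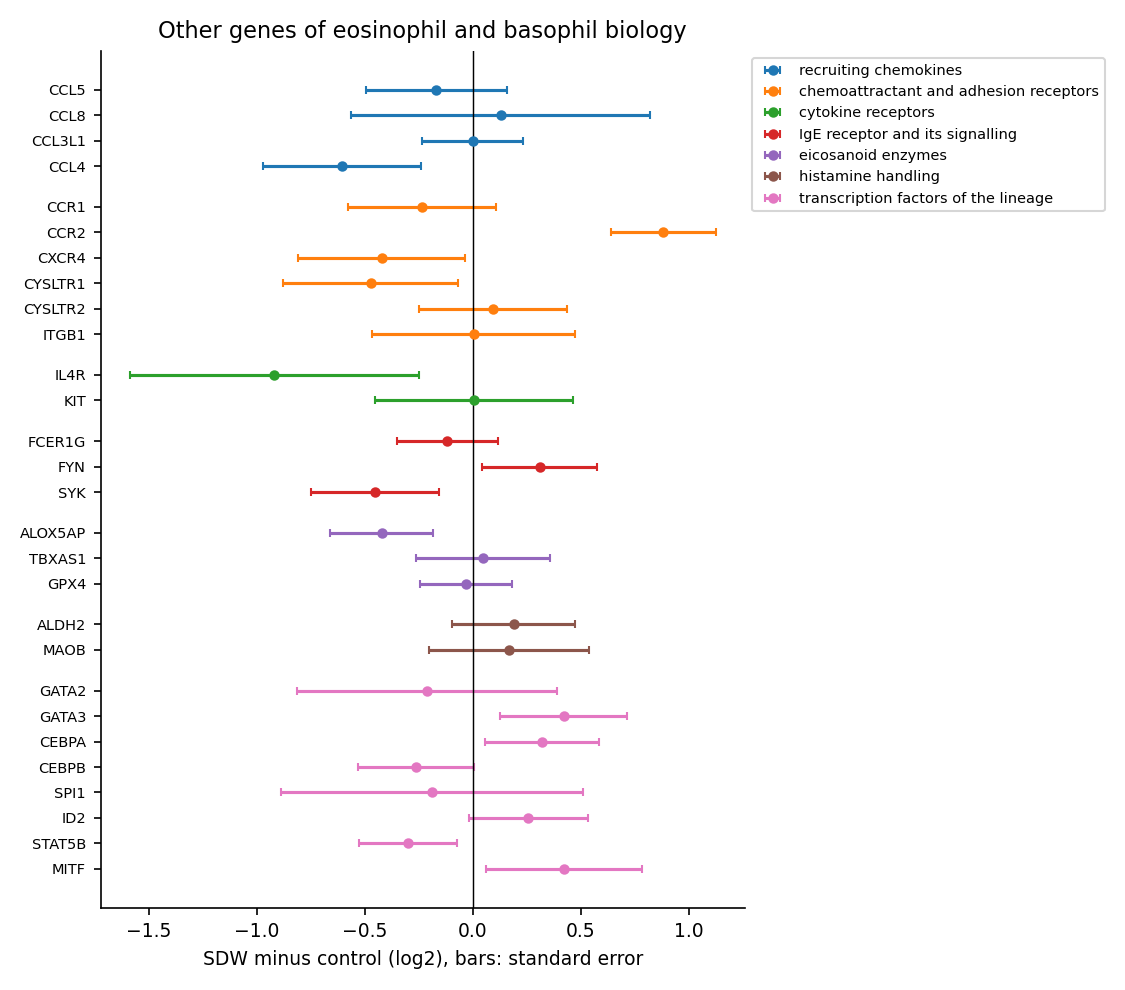
SDW minus control difference in log2 level of genes of each role, 1 point per gene with its standard error as whiskers and colours for the roles. Of the 28 genes drawn, 13 lie above 0 and 15 below it, and none was called.

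The place of CCR3 in the genome gave a further comparison. In the RefSeq table of assembly Sscrofa11.1 it lies directly between CCR1 and CCR2, other chemokine receptor genes, and XCR1 lies on the far side of CCR1. The diet differences were -0.48 (SE 0.50) for XCR1 and -0.24 (SE 0.34) for CCR1, with 0.07 on the other CCR1 probe. They were 0.53 (SE 0.38) for CCR3 and 0.88 (SE 0.24) for CCR2. None of these 4 genes was called, and nothing is read from the signs. CCL24 lies beside CCL26, which had no measurable probe.

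Levels of other blood cells were set beside these genes. All 6 measured neutrophil markers of 20 listed had a lower mean in SDW animals, with a median of -0.59 and none called by limma or at an unadjusted p under 0.05. Their summed level was 9.10 to 9.79 in controls and 8.73 to 9.51 in SDW animals. The 4 measured of 12 basophil and mast cell markers summed to 4.76 to 5.12 in controls and 4.29 to 5.63 in SDW animals. Diet differences were 0.00 (SE 0.46) for KIT and -0.21 (SE 0.60) for GATA2. Sums were taken on the linear scale, so the brightest probe of a list weighs most. For this list that was KIT, at a mean of 4.35 in either diet, against -1.53 and -0.56 for MS4A2. Summed levels were 5.27 to 6.13 and 5.80 to 6.43 for 5 of 12 T cell markers, and 5.90 to 6.82 and 5.86 to 6.50 for 7 of 12 monocyte and macrophage markers. The part of any of these cell types in the differences of the 5 genes was not tested.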

How the data were processed

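Whole blood RNA of 8 animals was measured on 1-colour arrays, 1 per animal. The authors deposited scanner files of linear spot intensities from Agilent Feature Extraction (10.1.1.1 per the file headers, 9.5.3.1 per the submitters' processing notes), background-subtracted within the array and not normalized between arrays. Here the processed intensities were turned to log2 minus the array's 75th percentile. Probes well above background on at least 4 of 8 arrays were kept (17350 of 43603). The diets, slide 3 and feeding week were fitted with limma 3.58.1 in R 4.3.3 (Benjamini-Hochberg over the kept probes, threshold 0.05), checked on simulated data. Precision is limited by the number of arrays.

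All 5 genes are named. Where a gene had several kept probes, the one with the highest mean level stood for it. Up to 4 genes of highest level are named per role of the pathway list and 4 of highest r per likeness list. A few genes are counted but not reported here by name. The list genes named on slide 3 are those called there and the 2 neutrophil markers with negative estimates. The remaining monocyte, macrophage and T cell markers are named too. All were chosen after their values were seen. The 5 genes and all lists were chosen with earlier results of these data known. Pairs used a permutation test over 40320 pairings, exact except where the diet means were removed. Same-numbered replicates did not deviate together (correlations -0.17, 0.11, 0.33 and -0.38), so the main fit has no pairs. In the authors' value table, 7 of 8 columns of intensities matched another replicate of the same diet, so replicate numbers are in doubt; names here follow the scanner files. By the table's numbers the correlations were 0.28, 0.25, 0.51 and 0.64, and a block on them is given among the alternatives. For numbers 1, 3 and 4 these pairs also shared a slide, so pairing and slide cannot be told apart there. Alternatives were other background corrections, normalizations and filters, the value table, slide and replicate blocks, and leaving out arrays.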

Additional observations from a re-analysis of the deposited data

How the results depend on the processing

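The diet differences of ALOX15, CCR3 and CCL24 stayed positive under every alternative run, and HDC did so except without control 1. MS4A2 stayed positive but was 0.17 with normexp. Leaving out 1 array gave 0.54 to 1.04 for ALOX15, 0.45 to 1.26 for MS4A2, 0.26 to 0.82 for CCR3, -0.02 to 0.70 for HDC and 0.64 to 1.24 for CCL24. Calls between the diets stayed at 0 except without slide 3 (1 probe, 542 unadjusted). With a replicate block 0 were called (239 unadjusted) and the 5 differences were the same; a block by the value table's numbers, chosen after seeing the data, gave 0 (904 unadjusted) and the same differences. Slide as a fixed or random block gave 0 (1143 and 631 unadjusted, against 251), with differences of 0.50 to 1.16 and 0.51 to 1.08.

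For slide 3, MS4A2 was 0.034 with normexp and -1.38 with median centring (adjusted p = 0.0342). CCR3 was -0.76 with normexp, -0.24 in the value table by its labels and -1.12 with no filter (adjusted p = 0.0544). HDC was -0.46, -0.28 and -1.30 (adjusted p = 0.056) in the same settings. The value table's columns were also placed by the matching scanner file, a setting chosen after seeing the data. CCR3 was then -1.11 (limma adjusted p = 0.0116) and HDC -1.395 (limma adjusted p = 0.0237). Leaving out 1 array gave -2.09 to -0.24 for MS4A2, -1.20 to -1.06 for CCR3, -1.89 to -0.71 for HDC, -0.81 to -0.51 for ALOX15 and -1.40 to 0.12 for CCL24. Called probes numbered 1132 with normexp, 3 in the value table by its labels and 2889 by the matching scanner file, and 387 (without control 1) to 2647 over single arrays left out, 693 without SDW 4. Lower calls were 52.5% of 2462, 70.7% with median centring, 40.4% with normexp and 31.3% with no filter, where the median estimate was 0.43.

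Per week, MS4A2 was -0.022 with normexp, -0.25 in the value table, -0.20 without slide 3 and -0.22 by the value table's numbers. HDC was -0.32, -0.089 and -0.30 in the last 3. In the value table and by its numbers, week 17 fell on the arrays of slide 3 alone. Over single arrays left out MS4A2 ran from -0.17 to 0.40, HDC from -0.20 to 0.35, CCR3 from -0.34 to 0.14, ALOX15 from -0.41 to -0.016, CCL24 from -0.35 to -0.038, and 0 to 1 probes were called. Pairs past the threshold were 0 with normexp, 4 with median centring and 1 by Spearman's rho. They were 1 with diet means removed (an approximate test) and 0 to 3 over single arrays left out. With normexp, r was 0.39 for MS4A2 and HDC, 0.13 for MS4A2 and CCR3, and 0.84 for ALOX15 and CCR3. No gene had a second probe to try, and the filter on all 8 arrays dropped MS4A2 and HDC.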
